A study of Mus musculus with 8 samples.

Results

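The 10 genes described here mark the cells that line blood vessels and carry the apelin signal between them: *Aplnr*, *Apln*, *Cdh5*, *Pecam1*, *Esam*, *Cd93*, *Emcn*, *Egfl7*, *Erg* and *Sox17*. They were taken by gene symbol from the 54532 genes of the count table, in which each symbol occurs once, and each was read in *Mettl3*-CKO and control retinas, with and without control replicate 1. Of the 10 genes, 7 had enough counts for edgeR's filter and were among the 17998 genes tested, while *Emcn*, *Erg* and *Sox17* did not and have their values from a fit without that filter. The choice of genes used no measured value of these samples, although it was made with earlier results of the same data known.

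The study asked what the m6A methyltransferase *Mettl3* does in the developing mouse retina. *Six3-Cre*, which is active in retinal progenitor cells, was used to delete floxed *Mettl3*, and 4 *Mettl3*-CKO retinal samples (*Six3-Cre*+; *Mettl3* floxed/floxed) were compared with 4 littermate control samples by bulk RNA-seq. The alleles that the controls carried, and whether they carried the Cre, are not given in the labels. The samples are labelled as postnatal day 7, the methods give day 6, and the labels name no treatment in either group. RNA came from whole retina, so that vessel cells, which do not descend from retinal progenitors, were measured together with all others. Nothing in the labels says whether each sample was 1 animal or a pool, and the p-values measure the spread between these samples.

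Total counts per sample lay between 16227095 and 20281517, and 3 counts, the floor taken for detection, corresponded to between 0.147 and 0.184 CPM (the usual depth-scaled count, here with TMM factors). Rod markers, which define retina, were present in every sample, with a summed level between 1657 and 4881 CPM. *Mettl3* itself was at 31.2 ± 2.24 CPM in the controls and at 24.1 ± 3.97 CPM in *Mettl3*-CKO retinas (SD, n = 4 each), and the ranges overlapped (log2 fold change -0.38, SE 0.12, edgeR quasi-likelihood adjusted p = 0.0602). Control replicate 1 stood apart from the other controls. Its sum over the 10 genes was 82.6 CPM against 29.1 to 35.3 CPM in control replicates 2 to 4, and its sum over 21 other endothelial genes was 115 CPM against 56.0 to 66.0 CPM. Its summed leukocyte markers were also the highest of the 8 samples at 174 CPM, against 58.7 to 88.4 CPM in the other controls and 92.8 to 139 CPM in *Mettl3*-CKO retinas. Control replicate 1 was also the highest of the 8 samples for summed astrocyte, rod, Müller glial, mural, and choroid and pigment epithelium markers. Control replicate 4 carried lens RNA, with a summed crystallin and lens level of 3331 CPM against 10.1 to 77.2 CPM in the other controls. The tests of the 10 genes are therefore given with and without control replicate 1, and the part that any of these differences between samples had in the results was not tested.

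Endothelial cells form the inner wall of every vessel. In the mouse retina they grow in after birth, spreading from the optic nerve head over a network of astrocytes and then diving into deeper layers, with tip cells in front and stalk cells behind. They hold together through VE-cadherin and platelet endothelial adhesion molecules, and keep their identity through transcription factors of the ETS and SOX F families. Apelin is a secreted peptide known to be made by tip cells, and its G protein-coupled receptor APJ, the product of *Aplnr*, is found on endothelial cells behind the tip and on veins.

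The genes lie on several chromosomes of GRCm38, and the coordinates in the count table matched those of the GENCODE vM21 annotation for all 10. *Aplnr* lies on chromosome 2 from 85136225 to 85139923 (plus strand) and consists of 1 merged exon of 3699 bases. *Apln* lies on chromosome X from 48025146 to 48034853 (minus strand), *Cdh5* on chromosome 8 from 104101625 to 104144511 (plus strand) and *Pecam1* on chromosome 11 from 106654217 to 106750628 (minus strand). *Esam* is on chromosome 9 from 37528078 to 37538319 (plus strand), *Cd93* on chromosome 2 from 148436640 to 148443563 (minus strand) and *Emcn* on chromosome 3 from 137341067 to 137432185 (plus strand). *Egfl7* is on chromosome 2 from 26580014 to 26593120 (plus strand), *Erg* on chromosome 16 from 95359169 to 95586593 (minus strand) and *Sox17* on chromosome 1 from 4490931 to 4497354 (minus strand). *Egfl7* shares exonic bases with *Agpat2* on the opposite strand, which had 43 to 137 counts per sample. Whether strand was used in counting is not stated, so that reads of these 2 genes could be mixed.

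Promoter sequence from RefSeq (GRCm38.p6, 250 bases upstream of the transcript start) was on hand for 4 of the 10 genes, with 8 windows in all. Because *Erg* and *Sox17* belong to the ETS and SOX families, each window was searched on both strands for ACAGGAA, a sequence with the ETS core, and for AACAAT, a sequence with the SOX core. The first occurred in 3 of the 8 windows, from *Egfl7* and *Emcn*, and in 7.2% of 32851 mouse promoter windows of the same length. The second occurred in 2 of the 8, from *Emcn* and *Erg*, and in 9.42% of all windows. A match describes the letters of the window only. The *Emcn* window, shown because it held both sequences, is at chr3:137340828-137341077 on the plus strand, an *Egfl7* window with a single ETS match is at chr2:26583615-26583864 on the plus strand, and the *Apln* window, which held neither, is at chrX:48034854-48035103 on the minus strand. Capitals mark the matches, read on either strand.
Emcn: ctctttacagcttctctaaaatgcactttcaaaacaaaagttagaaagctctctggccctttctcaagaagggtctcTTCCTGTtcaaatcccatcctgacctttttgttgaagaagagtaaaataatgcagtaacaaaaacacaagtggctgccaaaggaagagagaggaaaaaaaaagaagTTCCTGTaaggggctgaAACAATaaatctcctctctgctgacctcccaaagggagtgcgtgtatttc
Egfl7: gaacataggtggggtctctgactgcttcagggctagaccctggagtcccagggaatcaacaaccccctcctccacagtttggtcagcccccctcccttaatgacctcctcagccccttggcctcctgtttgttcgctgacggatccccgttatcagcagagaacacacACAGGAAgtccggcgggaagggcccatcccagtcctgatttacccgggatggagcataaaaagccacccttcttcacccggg
Apln: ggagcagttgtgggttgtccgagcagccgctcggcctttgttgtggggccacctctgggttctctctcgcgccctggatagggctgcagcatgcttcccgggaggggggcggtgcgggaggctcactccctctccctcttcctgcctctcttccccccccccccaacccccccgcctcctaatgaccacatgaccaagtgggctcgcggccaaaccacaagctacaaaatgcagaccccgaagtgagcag

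The apelin receptor gene had the lowest fold change of the 10. *Aplnr* was at 11.4, 3.92, 2.15 and 3.57 CPM in control replicates 1 to 4 and at 0.498, 0.290, 0.956 and 0.782 CPM in *Mettl3*-CKO replicates 1 to 4. The counts behind these values were 213, 64, 41 and 59 in controls and 9, 5, 18 and 16 in *Mettl3*-CKO retinas, so that every *Mettl3*-CKO sample lay below every control. *Aplnr* was downregulated 8.18-fold (log2 fold change -3.03, SE 0.52, 95% interval -4.16 to -1.90, edgeR adjusted p = 0.00398), the tenth lowest log2 fold change of all genes tested. Among the genes with lower values were lens genes, such as *Cryba1* (-7.20) and *Cryaa* (-6.86), with the lens RNA of control replicate 4 in the comparison. *Aplnr* was above the filter in all 4 controls and in 2 of the *Mettl3*-CKO samples, and so passed the filter through the controls. Without control replicate 1, whose level was 3.55 times the mean of the other controls, *Aplnr* was downregulated 4.95-fold (log2 fold change -2.31, SE 0.34, edgeR adjusted p = 0.000444). The size of the difference therefore depended on that sample, and its direction and call did not.

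*Apln*, which encodes the ligand, was not called. Its level was 4.71, 3.12, 1.21 and 2.30 CPM in control replicates 1 to 4 and 1.99, 0.928, 1.70 and 1.61 CPM in *Mettl3*-CKO replicates 1 to 4. Control replicate 3 lay below 3 of the 4 *Mettl3*-CKO samples, and the groups overlapped. The log2 fold change of *Apln* was -0.86 (SE 0.37, 95% interval -1.66 to -0.05, edgeR adjusted p = 0.174) and it did not pass the test, nor did it pass without control replicate 1 (-0.48, SE 0.33, adjusted p = 0.332). Per length, the ratio of *Aplnr* to *Apln* within a sample was 2.06, 1.07, 1.52 and 1.32 in controls and 0.213, 0.266, 0.479 and 0.413 in *Mettl3*-CKO retinas, a comparison chosen after the values had been seen. In RPKM the receptor exceeded the ligand in every control and was below it in every *Mettl3*-CKO sample.

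**Figure D1:**
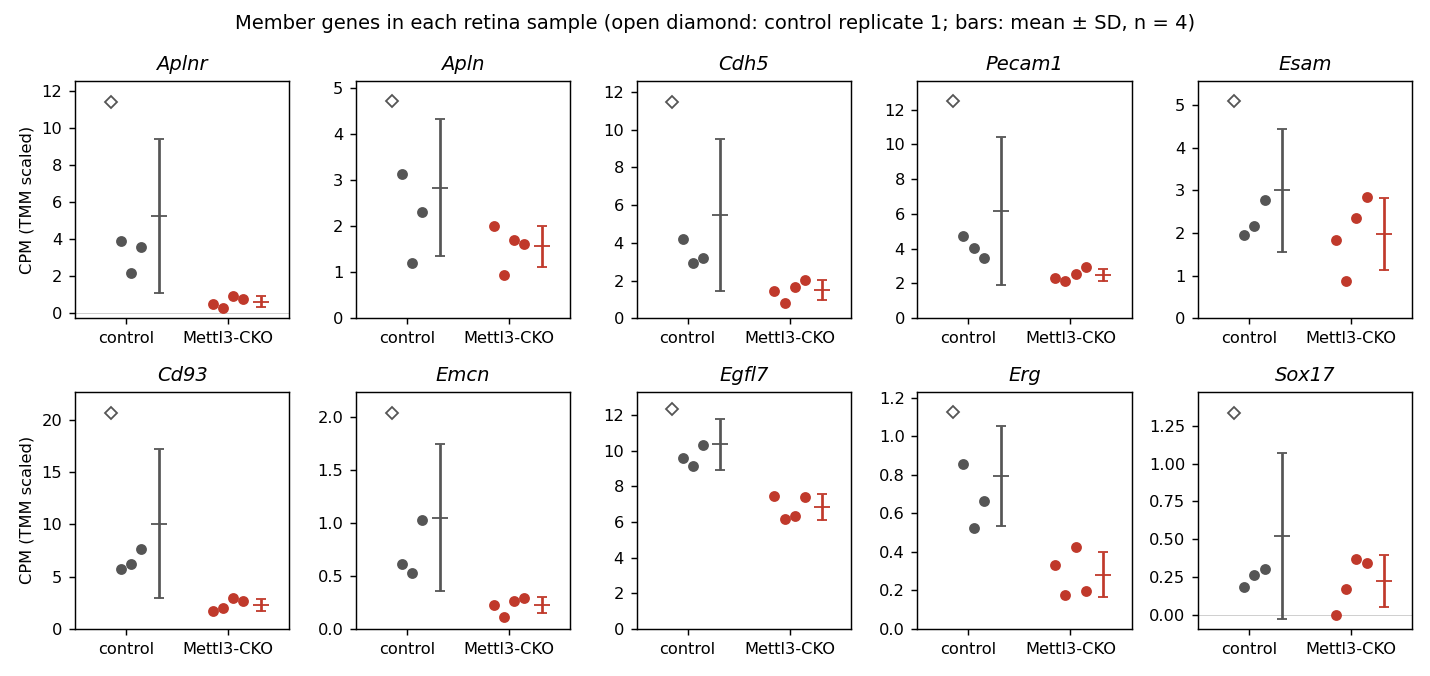
Level of each of the 10 genes in each retinal sample, in CPM after TMM scaling on linear axes that differ between panels. Points are samples (the open diamond is control replicate 1) and bars are mean ± SD, n = 4. For 7 of the 10 genes every *Mettl3*-CKO sample lies below every control, while *Apln*, *Esam* and *Sox17* overlap, and control replicate 1 is the highest sample in all 10 panels.

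Of the genes for junctions and adhesion between endothelial cells, *Cdh5* and *Pecam1* were downregulated. *Cdh5*, which encodes VE-cadherin, the cadherin of endothelial adherens junctions, was at 11.4, 4.22, 2.94 and 3.20 CPM in control replicates 1 to 4 and at 1.44, 0.812, 1.65 and 2.05 CPM in *Mettl3*-CKO replicates 1 to 4. The groups did not overlap, and *Cdh5* was 3.64-fold lower (log2 fold change -1.86, SE 0.43, edgeR adjusted p = 0.0182). Without control replicate 1 the decrease was 2.29-fold (-1.19, SE 0.27, edgeR adjusted p = 0.00800). The call was lost when *Mettl3*-CKO replicate 1 (edgeR adjusted p = 0.0760) or replicate 2 (0.0558) was left out.

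*Pecam1*, which encodes the adhesion molecule CD31, was at 12.5, 4.71, 4.04 and 3.44 CPM in controls and at 2.32, 2.15, 2.55 and 2.93 CPM in *Mettl3*-CKO retinas. The lowest control, replicate 4, stood just above the highest *Mettl3*-CKO sample, also replicate 4. *Pecam1* was 2.48-fold lower (log2 fold change -1.31, SE 0.36, edgeR adjusted p = 0.0377), and 1.63-fold lower without control replicate 1 (-0.70, SE 0.20, edgeR adjusted p = 0.0249). Its call was lost when any of the 4 *Mettl3*-CKO replicates was left out (edgeR adjusted p between 0.0651 and 0.128) and without control replicate 2 (0.0571). In the fits without a *Mettl3*-CKO replicate its log2 fold change lay between -1.40 and -1.25.

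*Esam*, an immunoglobulin-type adhesion molecule of endothelial tight junctions and platelets, did not pass the test. Its level was 5.08, 1.96, 2.15 and 2.78 CPM in controls and 1.82, 0.870, 2.34 and 2.83 CPM in *Mettl3*-CKO retinas. Only control replicate 1 stood clear of the *Mettl3*-CKO range. The log2 fold change was -0.60 (SE 0.37, 95% interval -1.39 to 0.20, edgeR adjusted p = 0.350), and -0.21 without that control (adjusted p = 0.692).

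The surface glycoproteins *Cd93* and *Emcn* both lay below the controls in every *Mettl3*-CKO sample. *Cd93*, which encodes a C-type lectin-like receptor of angiogenic endothelium, was at 20.7, 5.76, 6.19 and 7.67 CPM in controls and at 1.71, 1.97, 2.92 and 2.69 CPM in *Mettl3*-CKO retinas. It was downregulated 4.32-fold (log2 fold change -2.11, SE 0.39, 95% interval -2.96 to -1.27, edgeR adjusted p = 0.00579) and 2.79-fold without control replicate 1 (-1.48, SE 0.21, edgeR adjusted p = 0.000292). *Emcn*, which encodes endomucin, a sialoglycoprotein of veins and capillaries, had 38, 10, 10 and 17 counts in controls and 4, 2, 5 and 6 counts in *Mettl3*-CKO retinas. With counts this low it passed the filter's cutoff of 0.541 CPM in 3 controls and in 0 of the *Mettl3*-CKO samples, and was not tested with the other genes. In the fit without the filter its log2 fold change was -2.18 (SE 0.51, edgeR adjusted p = 0.00303), and -1.62 (SE 0.55, edgeR adjusted p = 0.0332) when control replicate 1 was also left out. The 2 kinds of fit are not alike: for *Cd93* with all 8 samples the SE was 0.26 without the filter and 0.39 with it. In filtered fits that left out 1 sample, *Emcn* was not called without *Mettl3*-CKO replicates 1, 2 or 3 (edgeR adjusted p between 0.0514 and 0.0750). It was called without *Mettl3*-CKO replicate 4 (0.0384) or control replicate 3 (0.0177). These fits differ from the one above in filter as well as in samples.

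*Egfl7*, which encodes a secreted matrix protein of endothelial cells and hosts the endothelial microRNA miR-126, had the highest mean level of the 10 genes in both groups and, relative to its level, the smallest spread. It was at 12.4, 9.61, 9.13 and 10.3 CPM in controls and at 7.47, 6.15, 6.32 and 7.43 CPM in *Mettl3*-CKO retinas, without overlap. *Egfl7* was 1.51-fold lower (log2 fold change -0.60, SE 0.14, 95% interval -0.91 to -0.29, edgeR adjusted p = 0.0200), and the value barely moved without control replicate 1 (-0.50, SE 0.14, edgeR adjusted p = 0.0221). Control replicate 1 was 1.28 times the mean of the other controls for *Egfl7*, the lowest such ratio among the 10 genes. The call was not made without *Mettl3*-CKO replicate 2 (edgeR adjusted p = 0.0547) or replicate 3 (0.0601).

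The transcription factors were near the limit of detection. *Erg*, an ETS factor that maintains endothelial gene expression, had 21, 14, 10 and 11 counts in controls and 6, 3, 8 and 4 counts in *Mettl3*-CKO retinas. The groups did not overlap, but the call was not made: in the fit without the filter the log2 fold change was -1.47 (SE 0.51, edgeR adjusted p = 0.0751), and -1.24 (SE 0.53, edgeR adjusted p = 0.134) without control replicate 1. *Sox17*, a SOX F factor of arterial endothelium, had 25, 3, 5 and 5 counts in controls and 0, 3, 7 and 7 counts in *Mettl3*-CKO retinas. The 0 allows up to 0.204 CPM in that sample, the upper end of its 95% interval by counting error alone. Without the filter the log2 fold change of *Sox17* was -1.20 (SE 0.65, edgeR adjusted p = 0.387), and it was -0.13 (SE 0.72, 95% interval -1.54 to 1.28, edgeR adjusted p = 0.931) once control replicate 1 was left out. No difference in *Sox17* was detected.

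Counted over the genes, 5 of the 7 tested were downregulated, where edgeR called 4.05% of all 17998 genes lower at an adjusted p under 0.05, and none was upregulated. Without the filter 6 of 10 were called lower (2.37% of all genes), and DESeq2 called 6 of the 9 for which it gave an adjusted p (5.48% of all genes). Leaving out control replicate 1 kept 5 of the 7 (7.07% of all genes) and, without the filter, 6 of the 10 (4.36% of all genes), the genes being *Aplnr*, *Cd93*, *Cdh5*, *Pecam1*, *Egfl7* and, without the filter, *Emcn*. With control replicate 4, which carried lens RNA, left out as well, 4 were called (3.63% of all genes), and *Egfl7* was lost (adjusted p = 0.0893). Leaving out a *Mettl3*-CKO sample or control replicate 3 let *Emcn* and *Erg* pass the filter, which then held 9 of the 10 genes. Each was over the cutoff in 3 controls and in 0 *Mettl3*-CKO samples, and so entered those fits through the controls. The count was 3 of 9 without *Mettl3*-CKO replicate 1 (1.01% of all genes), 2 of 9 without replicate 2 (2.3%), 3 of 9 without replicate 3 (1.83%) and, with *Emcn* and *Erg* among those called, 7 of 9 without control replicate 3 (2.48%). It was 4 of 7 without control replicate 2 (1.91%). All 4 *Mettl3*-CKO samples lay below all 4 controls for 7 of the 10, against 4.54% of all genes with at least 1 count. For each of these 7 genes the two-sided exact permutation test of log2 CPM gave p = 0.029, the smallest that 4 samples against 4 allow, and the p was 0.171 for *Apln*, 0.343 for *Esam* and 0.429 for *Sox17*.

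**Figure D2:**
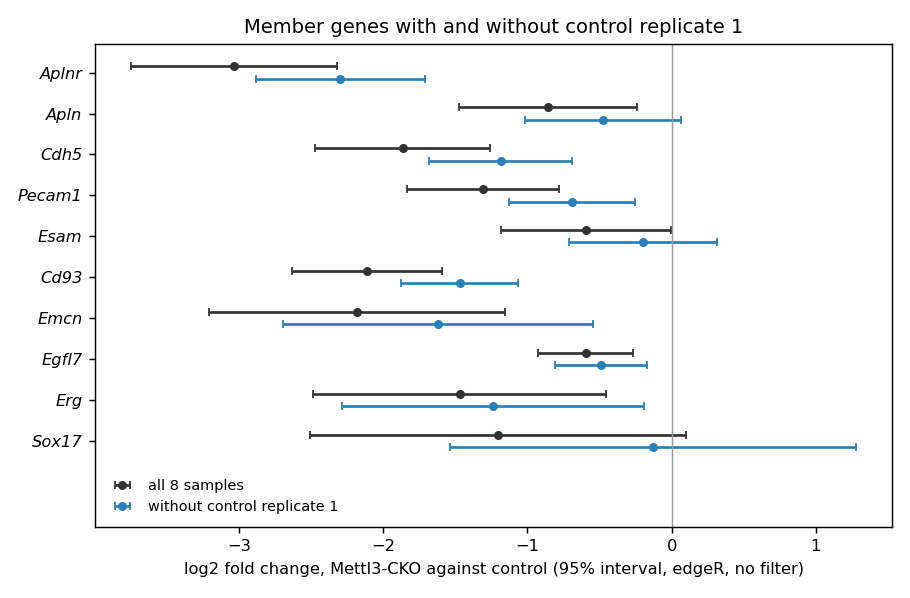
Log2 fold change of each gene, *Mettl3*-CKO against control, from edgeR without the filter on low counts, with 95% intervals, for all 8 samples (black) and without control replicate 1 (blue). With all 8 samples the intervals differ from those of the filtered fit. The SE of *Aplnr* is 0.36 here and 0.52 there, and that of *Egfl7* 0.16 and 0.14. *Esam* has an interval of -1.19 to -0.01 here and -1.39 to 0.20 there, and is called in neither. Every estimate moves toward 0 without control replicate 1. *Aplnr* stays lowest at -2.30, and *Sox17* reaches -0.13.

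The order of the genes by level differed between the groups. Per kilobase of exon, mean levels in controls were highest for *Egfl7* (2.89 ± 0.397 RPKM, SD, n = 4), followed by *Cd93* (1.51 ± 1.06), *Aplnr* (1.42 ± 1.13), *Cdh5* (1.30 ± 0.960), *Esam* (1.04 ± 0.501), *Pecam1* (0.990 ± 0.679) and *Apln* (0.900 ± 0.469). *Erg* (0.229 ± 0.0748), *Emcn* (0.194 ± 0.128) and *Sox17* (0.109 ± 0.114) were lower. From *Cd93* to *Apln* neighbours differed by less than their SDs. In *Mettl3*-CKO retinas *Egfl7* was again first at 1.91 ± 0.197 RPKM, but *Esam* (0.686 ± 0.293) and *Apln* (0.495 ± 0.143) came next, and *Aplnr* (0.171 ± 0.0800) moved from rank 3 to rank 7. *Apln* moved the other way, from rank 7 to rank 3. Over control replicates 2 to 4 alone *Aplnr* was also at rank 3, at 0.868 ± 0.253 RPKM, and *Apln* was at rank 6, at 0.701 ± 0.305 RPKM (SD, n = 3). As a share of the summed counts of the 10 genes, *Aplnr* made up 13.8%, 11.2%, 7.39% and 10.1% in controls and 2.80%, 2.13%, 4.90% and 3.70% in *Mettl3*-CKO retinas. The closest pair, control replicate 3 (95% Wilson interval 5.49% to 9.87%) and *Mettl3*-CKO replicate 3 (3.12% to 7.62%), overlapped in counting error.

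Whether these genes differed relative to other endothelial genes of the same library was examined with a list of 21 further endothelial genes, none of them among the 10. The summed counts of the list were 2143, 1078, 1068 and 1075 in control replicates 1 to 4 and 641, 668, 742 and 891 in *Mettl3*-CKO replicates 1 to 4, lower in every *Mettl3*-CKO sample. *Arhgef15* had the most counts of the list, 1107 over the controls and 865 over the *Mettl3*-CKO samples. Its log2 fold change was -0.43 (edgeR adjusted p = 0.0340). The sum is thus weighted toward a gene that changed less than most of the list, and the part of this in the scaled values was not tested. Of the 18 genes of the list that were tested, 11 were downregulated and none upregulated in edgeR's test, with a median log2 fold change of -1.20 against -0.01 over all genes tested, and 10 were called without control replicate 1. Without *Mettl3*-CKO replicates 1, 2 or 3 the count was 2, 6 and 3, it was 7 without control replicate 2, and without control replicates 1 and 4 together it was 4. *Tie1*, an orphan receptor tyrosine kinase of endothelium, was the lowest (log2 fold change -2.28, edgeR adjusted p = 0.0148, and -1.53 without control replicate 1). *Sox18*, a SOX F factor, had a log2 fold change of -2.27 but did not pass (edgeR adjusted p = 0.0555), and *Gpr4*, a proton-sensing receptor, was the highest at -0.24 (adjusted p = 0.722). In bulk RNA a lower number of endothelial cells and less of these transcripts per endothelial cell cannot be told apart.

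Scaled to the list in place of the library, 3 of the 7 tested genes were called lower in *Mettl3*-CKO retinas. The scale is the sum of the list, not each of its genes. On the library scale *Tie1* (-2.28) and *Sox18* (-2.27, not called) of the list lay below *Cd93* (-2.11) and *Cdh5* (-1.86). The median of the list was -1.20 and its highest gene, *Gpr4*, was at -0.24. *Aplnr* (-3.03) lay below every tested gene of the list. Per 1000 counts of the list, *Aplnr* had 99.4, 59.4, 38.4 and 54.9 counts in control replicates 1 to 4 and 14.0, 7.49, 24.3 and 18.0 in *Mettl3*-CKO replicates 1 to 4. It did not overlap between groups on this scale either, and its log2 fold change was -1.97 (SE 0.41, edgeR adjusted p = 0.000216). *Cd93* had 180, 87.2, 110 and 118 counts per 1000 in controls and 48.4, 50.9, 74.1 and 61.7 in *Mettl3*-CKO retinas, again without overlap (log2 fold change -1.08, SE 0.31, edgeR adjusted p = 0.00292). *Cdh5* had 99.9, 64.0, 52.4 and 49.3 against 40.6, 21.0, 41.8 and 47.1, a difference of -0.82 (SE 0.35, edgeR adjusted p = 0.0350) that was no longer called in 7 of 11 other settings, among them leaving out control replicate 1 (0.0673) and dropping the filter (0.0602). The scaling shifted the median log2 fold change of all genes to 0.84, and 74.6% of all genes were called higher and 0.15% lower, so that the adjustment for multiple tests was mild. *Aplnr* and *Cd93* were called under all 11 other settings. On the endothelial scale *Aplnr* lay between -2.24 and -1.64 and *Cd93* between -1.21 and -0.83, and scaled to mural genes they were at -2.87 and -1.95. These mural-scaled values lay near the library-scaled -3.03 and -2.11. *Ndufa4l2* was the largest part of the mural sum, at a mean of 90.0 CPM in controls and 80.9 CPM in *Mettl3*-CKO retinas. In the same sum *Notch3* rose from 14.1 to 38.9 CPM and *Rgs5* fell from 25.5 to 6.39 CPM.

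The other 4 genes tested did not differ from the list beyond their error. *Pecam1* had a scaled log2 fold change of -0.28 (SE 0.32, 95% interval -0.91 to 0.36), *Apln* of 0.13 (SE 0.38, -0.63 to 0.90), *Esam* of 0.36 (SE 0.37, -0.38 to 1.09) and *Egfl7* of 0.29 (SE 0.26, -0.24 to 0.82), with edgeR adjusted p between 0.311 and 0.741. These intervals include both 0 and changes of over 1.5-fold in at least 1 direction. Scaled to mural genes instead, *Pecam1* was called lower (-1.17, edgeR adjusted p = 0.0111), and *Apln*, *Esam* and *Egfl7* turned to -0.74, -0.45 and -0.50 without being called. Without the filter *Emcn* was at -1.19 (SE 0.62, edgeR adjusted p = 0.117), *Erg* at -0.54 (SE 0.62) and *Sox17* at -0.15 (SE 0.70). *Emcn* had 9.28 to 17.7 counts per 1000 in controls and 2.99 to 6.74 in *Mettl3*-CKO retinas, without overlap but on 2 to 6 counts per *Mettl3*-CKO sample.

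**Figure D3:**
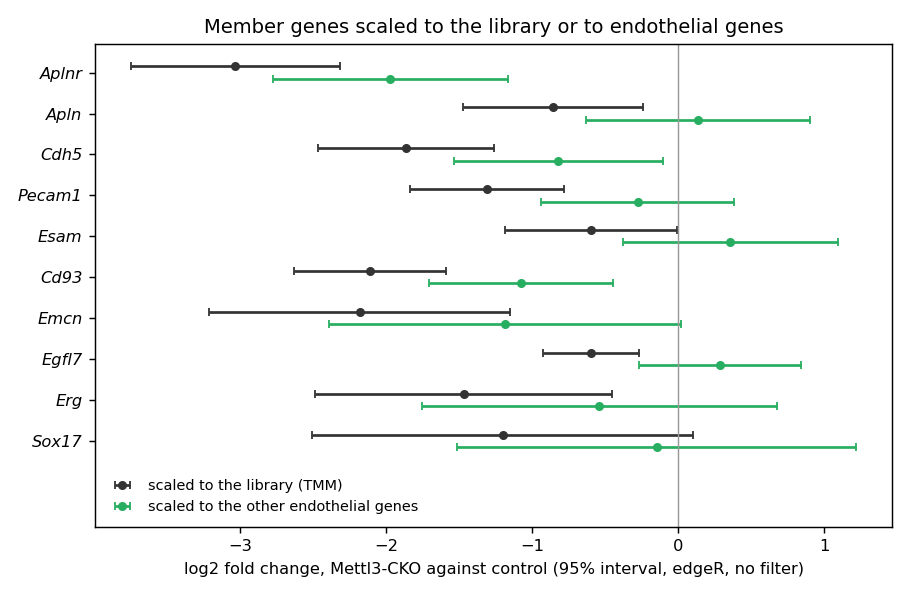
Log2 fold change of each gene, *Mettl3*-CKO against control, from edgeR without the filter on low counts, with 95% intervals, scaled to the library (black) or to the summed counts of 21 other endothelial genes (green). On the second scale the intervals of *Aplnr*, *Cd93* and *Cdh5* stay below 0 and those of the other 7 genes include 0; *Cdh5* is not called at an adjusted p of 0.0602.

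Within the apelin pathway *Aplnr* was the single gene called. The list of 11 held the receptor, the ligands, G proteins and arrestins that the receptor uses, and shear-responsive factors linked to it, and of 9 tested 1 was lower and none higher, with a median log2 fold change of -0.13. *Klf2*, a shear-responsive transcription factor, was at -0.87 (SE 0.43, edgeR adjusted p = 0.232), and *Gnai3*, an inhibitory G protein subunit expressed in most cells, was the highest at 0.08. *Apela*, which encodes the second ligand Elabela, had 3 counts over all 8 samples and was not tested.

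Genes listed for specialised endothelium were called in both directions, where edgeR called 729 of all 17998 genes lower and 1168 higher. Of those called higher, *Sox11* had means of 123 CPM in controls and 226 CPM in *Mettl3*-CKO retinas, and *Ephb4* of 8.60 and 13.3 CPM. *Cdh5* had 5.45 and 1.49 CPM. Which cells these reads came from was not tested. Among 14 tip cell genes, 11 were tested, 2 were lower and 2 higher (median -0.34). *Unc5b*, a netrin receptor of tip cells, was lower (-0.59, edgeR adjusted p = 0.0358), *Angpt2*, a TIE2 ligand, did not pass at -0.43 (adjusted p = 0.0715), and *Sox11*, which neural progenitors also express, was higher (0.88, edgeR adjusted p = 0.00269). Of 9 arterial genes tested none was called (median -0.45). Without control replicate 1, 2 were called lower, where edgeR called 1289 of all 18235 genes lower and 1882 higher. *Sema3g*, a class 3 semaphorin of arteries, had the lowest value at -0.90 (adjusted p = 0.0572), *Acvrl1*, a BMP9 and BMP10 receptor, followed at -0.77 (adjusted p = 0.0927), and *Hey1* was the highest at 0.08. Of 7 venous genes, 2 were lower and 1 higher (median -0.82). *Slc38a5*, an amino acid transporter, had the lowest value at -1.94 but did not pass (edgeR adjusted p = 0.0554). *Vwf*, von Willebrand factor, was lower (-1.67, edgeR adjusted p = 0.0153) and is also among the 21 other endothelial genes. *Ephb4*, the receptor of ephrin-B2, was higher (0.62, edgeR adjusted p = 0.0112). Of 9 ETS, SOX and partner factors tested, 2 were lower and none higher (median -0.30), with *Gata2* at -1.72 (edgeR adjusted p = 0.0172) and *Etv6* highest at 0.05. *Sox18* and *Sox7* of this list are also among the 21 other endothelial genes.

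Markers of other cell types around vessels moved in several ways beside the 10 genes. Among 11 mural genes tested, 2 were lower and 2 higher (median -0.47), and their summed level was 159 to 195 CPM in controls and 144 to 180 CPM in *Mettl3*-CKO retinas. *Rgs5* (-1.99, edgeR adjusted p = 0.00931, and -1.34 without control replicate 1) and *Abcc9* (-1.68, edgeR adjusted p = 0.0238), both pericyte markers, were lower, and *Notch3* (1.46, edgeR adjusted p = 0.000659), a Notch receptor of mural cells that neural progenitors also express, was higher. Of 4 red cell genes tested 2 were lower and none higher, *Hba-a1* at -2.65 (edgeR adjusted p = 0.000451) and *Hbb-bs* at -2.21 (edgeR adjusted p = 0.0132), both globins, while *Alas2*, of heme synthesis, was highest at 0.26 (adjusted p = 0.717). Their list summed to 14.8 to 27.2 CPM in controls and 4.58 to 7.92 CPM in *Mettl3*-CKO retinas, and control replicate 1 did not stand out at 15.4 CPM; *Hbb-y* was at 0 in every sample. Of 3 platelet genes tested none was called, with *Gp1ba* at -0.52, *Itga2b* at -0.50 and *Itgb3* at 0.23, but without control replicate 1 *Gp1ba* (-0.68, edgeR adjusted p = 0.0175) and *Itga2b* (-0.65, edgeR adjusted p = 0.0207) were called lower. The platelet list summed to 10.4 to 18.4 CPM in controls and 10.1 to 11.6 CPM in *Mettl3*-CKO retinas, and *Ppbp* was at 0.

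Astrocytes, the cells on which retinal vessels grow, had 2 of 5 markers lower and none higher. *Gfap*, the intermediate filament of astrocytes, was at -1.31 (edgeR adjusted p = 0.0230), *Aldh1l1* at -0.88 without passing (adjusted p = 0.182) and *Pax2*, a transcription factor of these cells, highest at -0.14. Their summed level was 215 CPM in control replicate 1, 95.3 to 120 CPM in the other controls and 54.9 to 84.1 CPM in *Mettl3*-CKO retinas. Leukocyte markers were not called in either direction among 12 tested (median 0.22, from *Ptprc* at -0.21 and *Cd68* at -0.16 to *Cx3cr1* at 0.63), and 5 were called higher without control replicate 1. Müller glial markers summed to 2000 to 2493 CPM in controls and 2091 to 2231 CPM in *Mettl3*-CKO retinas, with 1 of 8 lower, *Rlbp1* (-1.28, edgeR adjusted p = 0.00305), 1 higher, *Glul* (0.43, edgeR adjusted p = 0.00865), and *Car2* not called (-0.26). Rod genes were lower for 6 of 10 and higher for none (median -0.73, lowest *Pde6b* at -1.09 and *Gnat1* at -0.98, highest *Pde6a* at 0.08), and summed to 3163 to 4881 CPM in controls and 1657 to 3042 CPM in *Mettl3*-CKO retinas. Choroid and pigment epithelium genes, from the tissue behind the retina with its own dense vessels, were lower for 3 of 9 and higher for none (*Ttr* at -1.19, *Best1* at -0.99, *Col1a1* highest at 0.40) and summed to 89.3 to 121 CPM in controls and 59.8 to 79.8 CPM in *Mettl3*-CKO retinas. Lens genes were lower for 5 of 9, with the lowest values for *Cryba1* at -7.20 and *Cryaa* at -6.86, and with the lens RNA of control replicate 4 in that comparison. Choroid and pigment epithelium sums, like the astrocyte and rod sums, were highest in control replicate 1 and lower in every *Mettl3*-CKO sample than in every control. Without control replicate 1 the counts of calls were 5 lower for choroid and pigment epithelium genes and 8 lower for lens genes, and the tip cell, venous, ETS and SOX, mural, red cell, astrocyte, Müller glial and rod lists had the same numbers of calls. The part of each of these cell types in the lower endothelial genes was not tested.

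**Figure D4:**
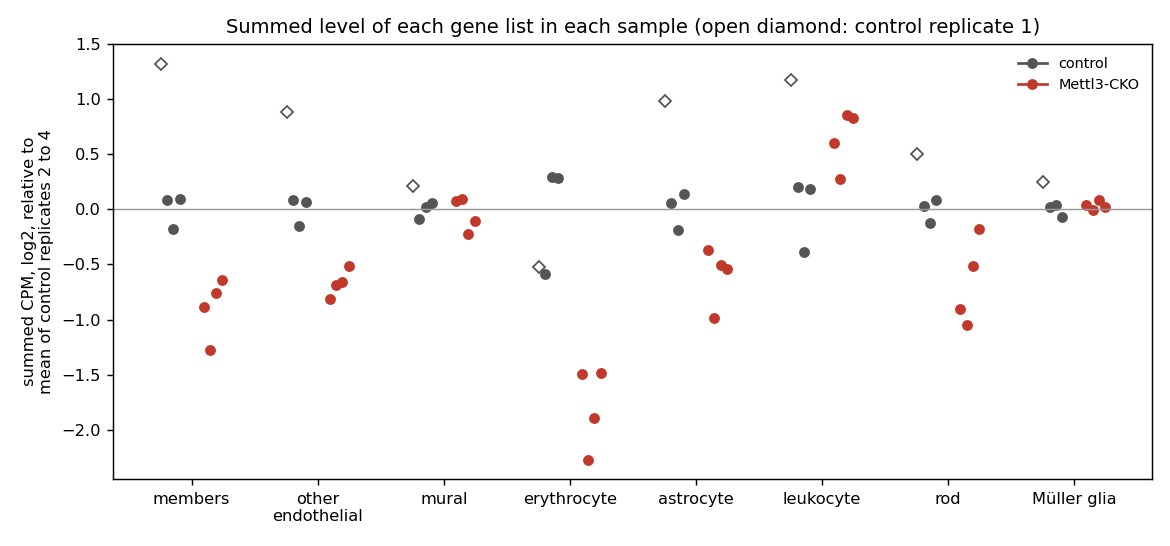
Summed CPM of each gene list in each sample, on a log2 scale relative to the mean of control replicates 2 to 4 (0 on the axis). Points are samples, and the open diamond is control replicate 1. The 10 genes (members), the other endothelial genes, the astrocyte markers and the rod markers all have control replicate 1 highest and the *Mettl3*-CKO samples lowest, while mural and Müller glial sums overlap between groups and erythrocyte genes are low in *Mettl3*-CKO retinas without control replicate 1 standing out.

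Across samples the levels of the 10 genes varied together. Over the 45 pairs of genes, Pearson's r of log2 CPM after centring on the group means was positive for all 45, from 0.298 (*Erg* and *Sox17*) to 0.950 (*Aplnr* and *Cdh5*), with a median of 0.777, over 8 samples. The points share their libraries, and the values are a description. Without control replicate 1, over 7 samples, 41 of the 45 were positive, from -0.32 to 0.891 with a median of 0.474, and *Aplnr* and *Cdh5* had 0.864. The genes outside the 10 whose log2 CPM was most like that of *Aplnr* over the 8 samples, among 16415 ranked, were *Olfml2a* (r = 0.988), *Igfbp7* (0.986), *Bhlhe41* (0.984), *C1qtnf12* (0.983) and *Crym* (0.983), where r includes the difference between the groups. *Igfbp7*, a secreted binding protein of insulin-like growth factors made by vessels, was at 11.2 ± 7.21 CPM in controls and 3.35 ± 1.33 CPM in *Mettl3*-CKO retinas (SD, n = 4 each), and *Crym*, a thyroid hormone-binding protein, at 362 ± 96.9 and 180 ± 29.1 CPM.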

How the data were processed

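Bulk RNA-seq of 4 *Mettl3*-CKO and 4 control retinal samples was used. The values the authors deposited are raw counts per gene. Per their methods, paired-end reads were mapped to GRCm38 with Hisat2 2.0.5 and counted with featureCounts 1.5.0-p3. The annotation release and strand setting are not given in the sources used here. Columns were matched to samples by name.

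The test was edgeR 4.0.16 under R 4.3.3 (filterByExpr, about 10 counts, 0.541 CPM, in at least 4 samples; TMM; quasi-likelihood test; Benjamini-Hochberg over all tested genes, threshold 0.05). The SE was the absolute log2 fold change divided by the square root of F, and log2 CPM used a prior count of 2. RPKM used the deposited gene lengths. The endothelium-scaled fit replaced the library size by the summed counts of the 21 listed genes. No samples were duplicates, since the closest pair, control replicates 2 and 3, had a chi-square of 5.46 per gene. Intervals on counts cover counting error only.

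Alternatives were DESeq2 1.42.0, limma 3.58.1 (voom with quality weights), other scalings and filters, a replicate block, mural scaling and left-out samples. The fits without both the filter and control replicate 1, and the scaled fit without the filter, were added after seeing the data, as were the promoter sequences searched.

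The 10 genes and all lists were chosen with earlier results of these data known. *Arhgef15* and *Ndufa4l2* are named for their level within their lists. From each list, the 2 lowest and the highest log2 fold changes are named, and the 5 genes most like *Aplnr* by Pearson's r with a mean log2 CPM of at least 0. A gene that this rule covers is not reported here. The statistics were checked on simulated data.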

Additional observations from a re-analysis of the deposited data

Results flagged for a closer look

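The highest or lowest sample of each group of 4 was compared with the others by Dixon's ratio of gap to range, on the CPM of each gene and of each list. Of 52 groups, 7 exceeded its 95% critical value, where chance gives about 1 in 20 (2.6), and on the log2 scale 0 of them did. Control replicate 1 accounted for 6. It stood at 11.4 CPM for *Cdh5* (other controls 2.94 to 4.22), 12.5 CPM for *Pecam1* (3.44 to 4.71), 20.7 CPM for *Cd93* (5.76 to 7.67) and 1.34 CPM for *Sox17* (0.184 to 0.302). Its sum was 82.6 CPM over the 10 genes (other controls 29.1 to 35.3) and 115 CPM over the 21 other endothelial genes (56.0 to 66.0). The remaining one was the lens list in control replicate 4, at 3331 CPM against 10.1 to 77.2 CPM.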

How the results depend on the processing

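*Aplnr* (-3.28 to -2.23) and *Cd93* (-2.30 to -1.36) were called lower in all 18 fits, *Cdh5* in 16, *Egfl7* in 15, *Pecam1* in 12, and *Apln* and *Esam* in 0. *Cdh5* was lost without *Mettl3*-CKO replicate 1 (adjusted p = 0.0760) or 2 (0.0558), and *Egfl7* without *Mettl3*-CKO replicate 2 (0.0547) or 3 (0.0601). *Emcn* was called in 5 of 8 fits and not without *Mettl3*-CKO replicates 1, 2 or 3 (0.0514 to 0.0750), and *Erg* was called in 1 of 8, without control replicate 3 (0.0462). The fits that left out 1 sample used the filter, which these 2 genes passed through the controls. With all 8 samples edgeR gave values for them only without the filter. Leaving out 1 replicate at a time, 2 to 7 of the 10 genes were called lower (2 of 9 tested without *Mettl3*-CKO replicate 2, 3 of 9 without 1 or 3, 7 of 9 without control replicate 3, against 5 of 7). Of the 21 other endothelial genes 2 to 11 were called (2 without *Mettl3*-CKO replicate 1, 3 without 3, 6 without 2, 7 without control replicate 2), and 4 without control replicates 1 and 4 together. Scaled to the endothelial list, 2 to 4 of the 10 genes were called. The cause was not tested.

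Correlations of same-numbered deviations were -0.111, 0.215, -0.114 and 0.249. With their mixed signs they do not settle whether replicate numbers pair the samples. With a replicate block 4 of the 7 genes tested were called lower, without *Pecam1* (edgeR adjusted p = 0.0575), and 8 of the 18 other endothelial genes tested. Over all genes that fit called 660 of 17998 lower. On the endothelial scale 2 genes were called with the block, and on the library scale *Aplnr* was at -2.82.

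On the endothelial scale *Apln* lay between -0.065 and 0.31 when single replicates were left out, the lowest value being without *Mettl3*-CKO replicate 1, and turned to -0.044 without control replicate 3, and scaling to mural genes gave -1.17 for *Pecam1* (called), -0.74 for *Apln*, -0.45 for *Esam* and -0.50 for *Egfl7*. On that mural scale 4 of the 7 genes tested were called. On the endothelial scale without the filter, 2 of 10 were called. Depth limited *Emcn*, *Erg* and *Sox17*, each with at most 8 counts in any *Mettl3*-CKO sample.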
